A study of Homo sapiens with 6 samples.

Results

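Expression of 10 cytokine genes was examined in SKOV3, an established human ovarian cancer cell line, with and without stimulation of the STING pathway by cGAMP. The genes were IL6, LIF, IL11, IL1A, IL1B, IL7, IL15, CSF1, CSF2 and CSF3, taken by symbol from the 60498 genes of the deposited table. All 10 were listed. RNA-seq was available for 3 lines, with 1 control library and 1 cGAMP library per line, 6 libraries in all. The parental line is heterozygous for STING1 (WT/HAQ), HAQ being a common variant haplotype of the gene. The other lines were WT/- and HAQ/-, each a single clone from which CRISPR editing had deleted the other STING1 allele. For stimulation, digitonin-permeabilized cells took up 2'3'-cGAMP at 10 μg/mL over 30 min, followed by a rest of 4 h. How the control cells were handled is not given in the sources used here, so cGAMP and this handling cannot be told apart, nor can an allele and the clone that carries it.

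These cytokines are small secreted proteins that cells use to signal to each other in inflammation, haematopoiesis and tissue repair. IL-6, LIF and IL-11 signal through receptor complexes that share the gp130 chain (IL6ST) and activate STAT3. IL-1α and IL-1β act on the IL-1 receptor, IL-7 and IL-15 on receptors that share the common γ chain (IL2RG), and the colony-stimulating factors on receptors of myeloid cells. Several of these transcripts carry AU-rich elements and are short-lived, and many are made by carcinoma cells as well as by leukocytes.

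The libraries held between 12444822 (WT/- cGAMP) and 17608467 (WT/HAQ control) counts and between 21193 and 21992 genes with a count. STING1, the edited gene, had 669.1 normalized counts in the WT/HAQ control, 353 in the WT/- control and 213 in the HAQ/- control, against 1780.3, 553 and 403 with cGAMP. Thus both clones held less STING1 RNA than the parental line in either condition. The summed level of 6 epithelial markers (EPCAM, KRT8, KRT18, KRT7, ERBB2 and PAX8) ran from 72246 to 107238 normalized counts, of which ERBB2 made up 46462 to 69247. With cGAMP the level of PAX8 was 3.43-fold lower in WT/HAQ, 1.89-fold in WT/- and 1.41-fold in HAQ/-, and that of KRT7 2.002-fold, 1.58-fold and 1.29-fold lower. By edgeR 0 of the 6 passed in either direction, with 0 higher and 3 lower before adjustment at p under 0.05 (11.6% and 13.6% of all genes) and 0 and 2 by DESeq2 (5.1% and 3.85%), and their part in the cytokine results was not tested. The summed level of 6 leukocyte markers ran from 6.57 to 17.7, 5 of them were under 10 in every library and MS4A1 was at 0 throughout. Leukocyte marker RNA was thus nearly absent. The summed level of 4 endothelial and fibroblast markers (PECAM1, CDH5, COL1A1 and DCN) ran from 951 to 1406, of which COL1A1 made up 792 to 1121. With cGAMP DCN had a ratio of 0.906 in HAQ/-, 1.33 in WT/- and 1.49 in WT/HAQ (edgeR adjusted p = 0.347), and the part of these markers in the cytokine results was not tested.

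Normalized counts were counts scaled to a common library size. A fold compares the cGAMP library of a line with its control, and its 95% interval covers counting error only, since there was no replicate of a line and treatment. A gene was called raised at 1.5-fold or more and lowered at 1.5-fold or more in the other direction, for the 15126 genes with a mean of at least 10 counts. Of the 10 cytokine genes, 9 passed this filter. CSF3 did not, with a mean of 3.83 counts. A mean change shared by the 3 lines was sought by the quasi-likelihood F test of edgeR, in which the line was a block, and p-values were Benjamini-Hochberg adjusted over all 15126 genes. The 3 lines, which differ in genotype, served as the replicates of that test. In bulk RNA, fewer cells that express a gene and less RNA per cell cannot be told apart.

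Levels of different genes were compared per kilobase of all annotated exons of a gene, which can exceed the length of the transcript that is expressed, so the order depends on the annotation. On this scale LIF, IL1A and CSF1 were the most abundant in the WT/HAQ control, with 2726, 1852 and 1053 normalized counts per kb. IL11 followed with 358, IL6 with 197, IL1B with 137, CSF2 with 48.2, IL15 with 12.9 and IL7 with 10.9, while CSF3 had no count. In the WT/- control IL1A led with 7007 per kb, followed by LIF with 6259, CSF1 with 4939, IL6 with 1606, IL1B with 698, IL11 with 459 and CSF2 with 360.03, and IL15, IL7 and CSF3 had 27.8, 10.5 and 7.57. In the HAQ/- control LIF led with 1592 per kb, IL11 stood at the next place with 465, and IL1A and CSF1 could not be separated at 199 per kb each, followed by IL6 with 36.9, IL1B with 13.3, IL15 with 11.1, CSF2 with 9.96 and IL7 with 3.86. Counting intervals overlapped between IL15 and IL7 in the WT/HAQ control, between IL7 and CSF3 in the WT/- control, and in the HAQ/- control among IL1B, IL15 and CSF2 and between CSF2 and IL7. Between the highest and the lowest gene with a count, levels in the WT/HAQ control thus spanned 2726 to 10.9 normalized counts per kb.

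**Figure D1:**
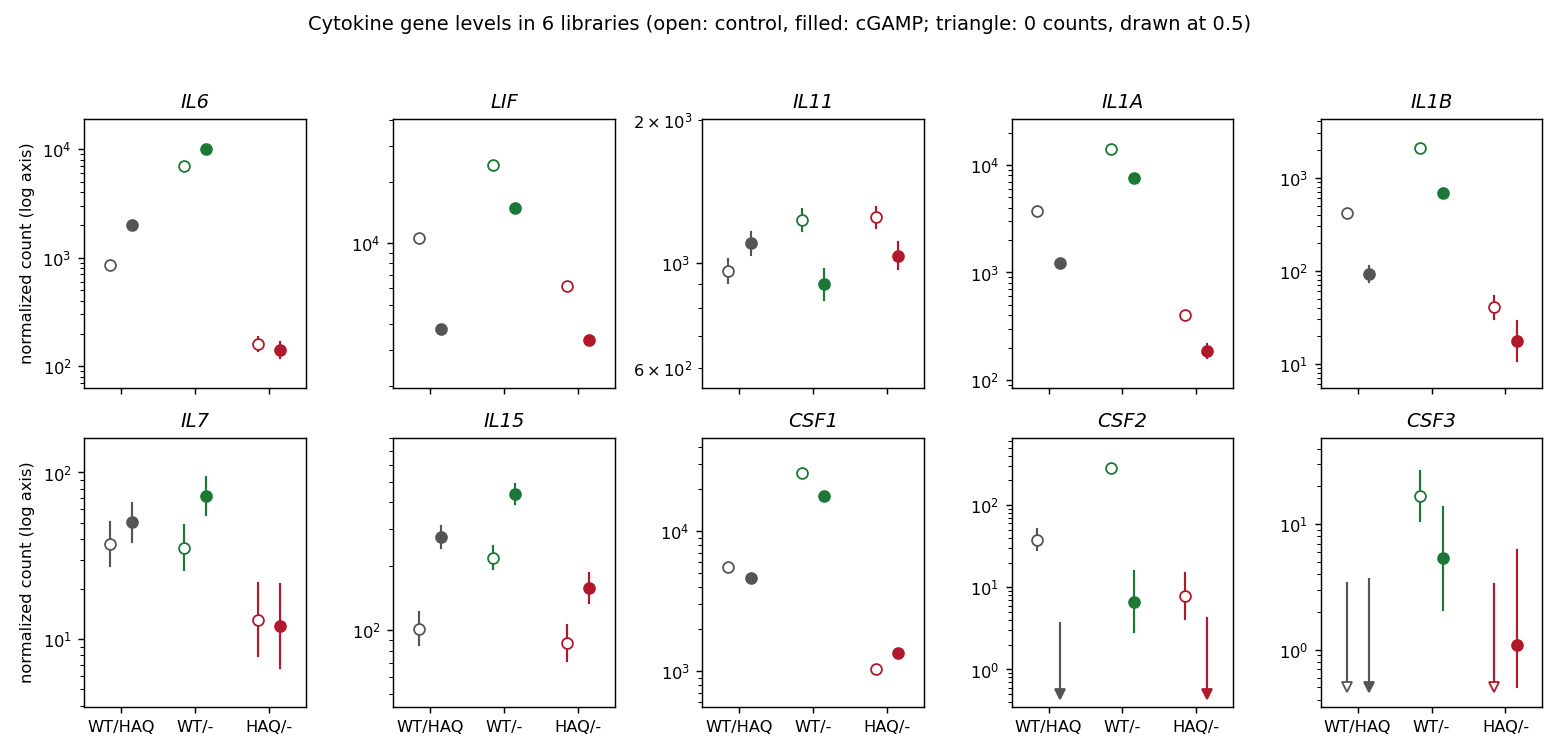
Normalized counts (log axis, 1 panel per gene, each with its own range) of the 10 cytokine genes in the control (open) and cGAMP (filled) library of each line, with 95% counting intervals as bars and triangles for libraries with 0 counts. IL6, LIF, IL1A, IL1B and CSF1 stand highest in WT/- and lowest in HAQ/- in both conditions, IL11 differs little between lines, and CSF2 falls to 5 counts or fewer with cGAMP.

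Among the gp130 cytokines, IL6, LIF and IL11 differed in their values with cGAMP. IL6 (chr7:22725884-22732002, GRCh38, plus strand), an inflammatory cytokine and inducer of the acute phase response, had 851 normalized counts in the WT/HAQ control and 1987 with cGAMP, 6939.5 and 9924 in WT/-, and 159.6 and 141.2 in HAQ/-. IL6 was therefore higher with cGAMP in the parental line by 2.33-fold (2.16 to 2.52) and in WT/- by 1.43-fold (1.38 to 1.48), while in HAQ/- the ratio of 0.885 (0.706 to 1.11) did not exclude equality. Averaged over the lines the log2 change of 0.58 ± 0.25 (SE) did not pass the test (edgeR adjusted p = 0.233). It was 0.85 without HAQ/- (edgeR adjusted p = 0.011), 0.63 without WT/- (0.532) and 0.23 without WT/HAQ (0.632). The difference between lines in response was not tested, as the design leaves no replicate for it. IL6 overlaps IL6-AS1 (1 to 13 counts) and STEAP1B (0 to 4 counts) on the opposite strand.

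The upstream sequence of IL6 was read because transcription of this gene is known to be driven by NF-κB, one of the factors that act downstream of STING. The 197 bases printed are chr7:22726950-22727146 of GRCh38.p14, plus strand, from 250 to 54 bases before the RefSeq transcription start, with the match to the NF-κB site in capitals (73 to 64 bases before the start).
IL6: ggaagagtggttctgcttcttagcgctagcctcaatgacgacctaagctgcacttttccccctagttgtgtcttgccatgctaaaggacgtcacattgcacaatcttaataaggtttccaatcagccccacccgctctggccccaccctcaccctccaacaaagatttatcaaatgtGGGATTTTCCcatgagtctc
An NF-κB site of this kind was present in 5.2% of the 34943 RefSeq windows of 250 bases searched, and among the cytokine genes in IL6 alone of the 5 with a window (IL6, IL1A, IL1B, CSF2 and IL11).

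LIF (chr22:30240453-30246759, minus strand), a cytokine known for keeping stem cells undifferentiated and for embryo implantation, fell. It had 10554 normalized counts in the WT/HAQ control and 3794 with cGAMP, 24229 and 14898 in WT/-, and 6162 and 3368 in HAQ/-. The cGAMP library was the lower one in every line, by 2.78-fold (2.68 to 2.88) in WT/HAQ, 1.83-fold (1.75 to 1.91) in HAQ/- and 1.63-fold (1.59 to 1.66) in WT/-. The average log2 change was -1.02 ± 0.16 (SE; edgeR adjusted p = 0.0448). LIF overlaps the antisense genes LIF-AS1 (1 to 4 counts) and LIF-AS2 (31 to 200 counts). Without the WT/- line the log2 change was -1.16 with an edgeR adjusted p of 0.272. Among genes with a mean of at least 50 counts it was -1.003 with an edgeR adjusted p of 0.0506.

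IL11 (chr19:55364382-55370463, minus strand), a cytokine with roles in fibrosis and platelet production, had 959.9 normalized counts in the WT/HAQ control and 1098 with cGAMP, 1229 and 900.2 in WT/-, and 1246 and 1034 in HAQ/-. All 6 values thus lay close together. The log2 ratio of IL11 was 0.19 in WT/HAQ but -0.45 in WT/- and -0.27 in HAQ/-, none of them 1.5-fold, and the average of -0.17 ± 0.13 (SE) did not pass the test (edgeR adjusted p = 0.487).

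The IL-1 genes both fell. IL1A (chr2:112773925-112784493, minus strand) encodes IL-1α, an alarmin that is active as its precursor. It had 3735 normalized counts in the WT/HAQ control and 1227 with cGAMP, 14133 and 7616 in WT/-, and 401 and 185 in HAQ/-. It was 3.04-fold (2.86 to 3.24), 1.86-fold (1.80 to 1.91) and 2.17-fold (1.82 to 2.59) lower with cGAMP in WT/HAQ, WT/- and HAQ/-, an average log2 change of -1.21 ± 0.15 (SE; edgeR adjusted p = 0.0268).

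IL1B (chr2:112829751-112836816, minus strand), whose product must be cleaved by an inflammasome protease to become active, had 411 normalized counts in the WT/HAQ control and 91.2 with cGAMP, 2101 and 689 in WT/-, and 40.1 and 17.5 in HAQ/-. The intervals of control and cGAMP libraries did not overlap in any line. IL1B was 4.50-fold (3.62 to 5.61), 3.05-fold (2.77 to 3.35) and 2.29-fold (1.31 to 4.02) lower with cGAMP, the latter from 46 and 16 counts. The average log2 change was -1.77 ± 0.17 (SE; edgeR adjusted p = 0.0139). Without the WT/- line both IL-1 genes lost the call, at log2 changes of -1.37 for IL1A (edgeR adjusted p = 0.213) and -1.85 for IL1B (0.278).

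The IL1A promoter is shown because IL1A and IL1B, neighbours on chromosome 2, fell together. RefSeq gives it a pair of starts. The 250 bases before the upstream one are chr2:112784494-112784743 (GRCh38.p14, minus strand), with an AP-1 match 12 to 6 bases and a TATA match 239 to 234 bases before the start in capitals. The same AP-1 match lies 105 to 99 bases before the downstream start, whose window holds another AP-1 match, TGAGTCA, 55 to 49 bases before it.
IL1A: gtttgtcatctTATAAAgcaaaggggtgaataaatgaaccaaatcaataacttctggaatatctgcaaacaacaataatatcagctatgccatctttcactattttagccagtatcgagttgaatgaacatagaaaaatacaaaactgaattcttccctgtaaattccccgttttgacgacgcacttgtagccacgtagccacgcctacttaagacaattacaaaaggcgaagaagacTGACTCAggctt
IL1B had a STAT match and no AP-1 match in its window, so the letters searched were not shared between the IL-1 genes.

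Of the common γ chain cytokines, IL15 rose. IL15 (chr4:141636583-141733987, plus strand), which sustains NK cells and memory CD8+ T cells, had 102 normalized counts in the WT/HAQ control and 275 with cGAMP, 219 and 437 in WT/-, and 87.2 and 158 in HAQ/-. Every line held more IL15 RNA with cGAMP, by 2.70-fold (2.18 to 3.35), 1.99-fold (1.68 to 2.35) and 1.81-fold (1.40 to 2.33) in WT/HAQ, WT/- and HAQ/-. The average log2 change was 1.10 ± 0.14 (SE; edgeR adjusted p = 0.0296). IL15 lost the call without WT/HAQ, at 0.93 (edgeR adjusted p = 0.0748), and without WT/-, at 1.16 (0.324).

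IL7 (chr8:78675743-78805523, minus strand), a growth factor of lymphocyte precursors, was low, with 11 to 54 counts per library. It had 37.1 normalized counts in the WT/HAQ control and 50.4 with cGAMP, 35.5 and 72.1 in WT/-, and 13.1 and 12.04 in HAQ/-. The ratio was 2.03 (1.35 to 3.07) in WT/-, but 1.36 (0.908 to 2.03) in WT/HAQ and 0.920 (0.430 to 1.97) in HAQ/- did not exclude equality at this depth. The average log2 change of 0.54 ± 0.30 (SE) did not pass the test (edgeR adjusted p = 0.333). IL7 overlaps ZC2HC1A on the opposite strand, which had 215 to 359 counts, and whether counting used the strand is not given in the sources used here.

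Among the colony-stimulating factors, CSF2 fell and CSF1 did not move one way. CSF1 (chr1:109910242-109930992, plus strand), the growth and survival factor of macrophages, had 5517 normalized counts in the WT/HAQ control and 4656 with cGAMP, 25871 and 17818 in WT/-, and 1039.9 and 1351 in HAQ/-. CSF1 had a log2 change of 0.38 in HAQ/- but -0.24 in WT/HAQ and -0.54 in WT/-, none of them 1.5-fold. The average of -0.14 ± 0.18 (SE) did not pass the test (edgeR adjusted p = 0.675), and without the WT/- line its sign turned, to 0.073 (edgeR adjusted p = 0.886). Without the HAQ/- line it was -0.40 with an edgeR adjusted p of 0.0309.

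CSF2 (chr5:132073789-132076170, plus strand) encodes GM-CSF, which acts on granulocytes, macrophages and dendritic cells. It had 38.0 normalized counts in the WT/HAQ control and 0 with cGAMP, 284 and 6.68 in WT/-, and 7.85 and 0 in HAQ/-, which came from 43 and 0, 304 and 5, and 9 and 0 counts. With cGAMP CSF2 was thus at or near 0 in all 3 lines, and folds were taken against a floor of 3 counts. CSF2 was at least 13.3-fold lower in WT/HAQ, 42.5-fold (18.03 to 100.1) lower in WT/- and at least 2.39-fold lower in HAQ/- (edgeR adjusted p = 0.00932, and 0.331 without the WT/- line). The limits against 0 counts leave out the counting error of the control, which had 9 counts in HAQ/-. With a floor of 10 counts, which is above the 0 and 5 counts of the cGAMP libraries, the limits were at least 3.999-fold lower in WT/HAQ and at least 21.2-fold lower in WT/-, and HAQ/- had no fold, which left 3 genes lowered in that line. No average fold is given, since it would depend on the constant added to counts of 0.

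The CSF2 promoter is shown since CSF2 had the largest fold of the 9 genes in WT/- and no count with cGAMP in the other lines. Its 250 bases before the RefSeq start are chr5:132073539-132073788 (GRCh38.p14, plus strand), with a STAT match 190 to 182 bases before the start in capitals.
CSF2: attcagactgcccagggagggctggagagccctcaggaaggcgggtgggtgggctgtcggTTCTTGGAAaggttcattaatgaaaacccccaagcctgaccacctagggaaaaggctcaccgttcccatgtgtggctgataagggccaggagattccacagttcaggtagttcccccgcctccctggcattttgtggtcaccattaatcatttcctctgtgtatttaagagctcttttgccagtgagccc
IL11, whose 6 levels lay between 900.2 and 1246 normalized counts, is given for contrast: chr19:55370464-55370713 (minus strand), with an AP-1 match 96 to 90 bases before the start in capitals.
IL11: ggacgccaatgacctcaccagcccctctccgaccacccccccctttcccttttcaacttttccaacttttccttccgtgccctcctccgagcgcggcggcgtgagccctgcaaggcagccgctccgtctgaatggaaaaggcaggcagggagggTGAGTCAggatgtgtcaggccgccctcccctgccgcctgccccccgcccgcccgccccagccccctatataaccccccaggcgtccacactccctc
Motifs were searched on both strands. AP-1, spelled as TGANTCA, was found in IL1A and IL11 and in 6.59% of all windows, STAT (TTCNNNGAA) in IL1B and CSF2 and in 6.56%, and the TATA box, spelled TATAAA, in IL1A and in 10.8%. Only that exact spelling was searched, so the letters tatataa printed for IL11 did not count. The core of the interferon-stimulated response element (ISRE) and the CRE (TGACGTCA) were found in 0 of the 5 genes and in 3.02% and 1.63% of all windows. These matches describe letters in a window and are not sites of binding.

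CSF3 (chr17:40015361-40017813, plus strand), which encodes the neutrophil growth factor G-CSF, was too low to measure in most libraries. It had 0 counts in both WT/HAQ libraries, 18 and 4 counts in the WT/- control and cGAMP libraries, and 0 and 1 in those of HAQ/-. In WT/- it was 3.14-fold lower with cGAMP, with an interval of 1.12 to 8.86. With a floor of 10 counts, above its 4 counts with cGAMP, the log2 change was at most -0.33. No fold could be given in the other lines.

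**Figure D2:**
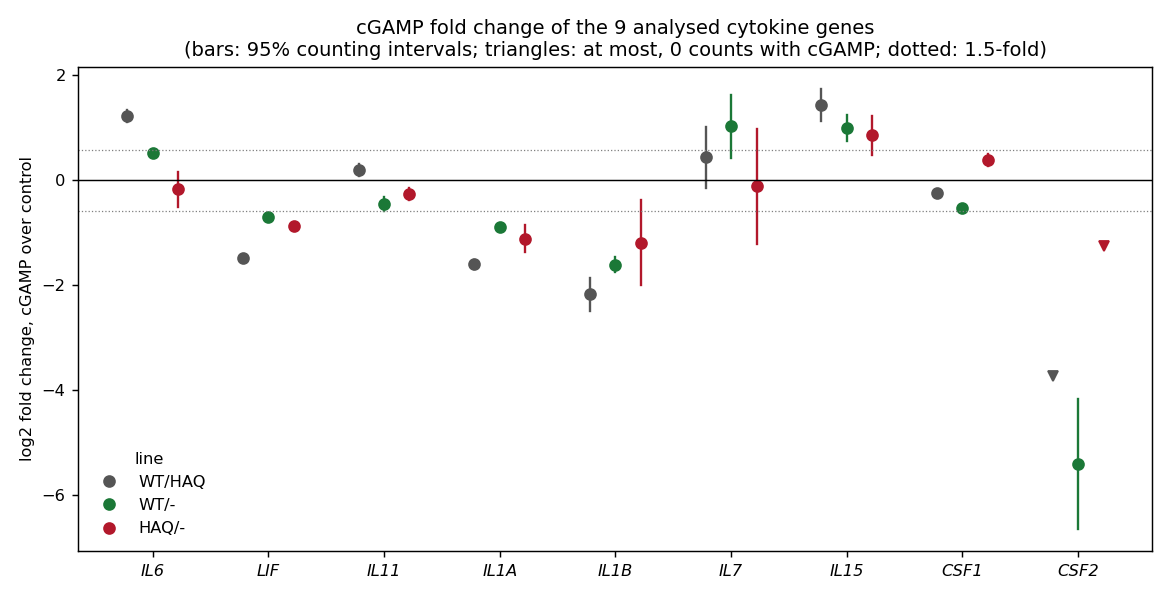
Log2 fold change, cGAMP over control, of the 9 cytokine genes that passed the count filter, 1 point per line with its 95% counting interval, triangles for upper limits where the cGAMP library had 0 counts, and dotted lines at 1.5-fold. LIF, IL1A, IL1B and CSF2 lie below 0 and IL15 above 0 in all 3 lines, whereas IL6, IL11, IL7 and CSF1 have points on both sides of 0.

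Counted within lines, 2 of the 9 genes were raised in WT/HAQ (IL6 and IL15), against 12.8% of all genes analysed, and 4 were lowered, against 12.3%. In WT/- 2 were raised (IL7 and IL15), against 11.9%, and 4 lowered, against 8.77%. In HAQ/- 1 was raised (IL15), against 6.75%, and 4 lowered, against 5.76%. The 4 lowered genes were LIF, IL1A, IL1B and CSF2 in each line. CSF2, with a mean of 60.2 counts, passed the count filter mainly through the 304 counts of the WT/- control. Its place among the lowered genes thus depends on the library in which it was highest, and its call in HAQ/- rested on 9 and 0 counts. By edgeR's test over the lines 1 gene was higher, against 2.27% of all genes, and 4 were lower, against 0.959%. The median log2 change of the 9 genes was -0.54 in WT/-, -0.27 in HAQ/- and -0.24 in WT/HAQ, beside medians of 0.00, -0.01 and -0.01 over all genes. Without the line as a block 0 of the 9 genes passed edgeR's test, and 0 higher and 1 lower had an unadjusted p under 0.05, against 6.31% and 5.34% of all genes. Without the WT/- line 0 passed, although 1 higher and 4 lower had an unadjusted p under 0.05, against 6.27% and 6.21%.

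Levels also differed between the lines, and most of these genes were highest in WT/- and lowest in HAQ/-. In the controls IL6 was 8.15-fold (7.62 to 8.72) higher in WT/- than in WT/HAQ and 5.33-fold (4.55 to 6.24) lower in HAQ/- than in WT/HAQ. IL1A was 3.78-fold (3.66 to 3.91) higher and 9.31-fold (8.45 to 10.2) lower in the same comparisons, and IL1B 5.11-fold (4.63 to 5.65) higher and 10.2-fold (7.57 to 13.8) lower. CSF1 was 4.69-fold (4.56 to 4.82) higher and 5.31-fold (4.99 to 5.64) lower. The same direction held for CSF2, 7.46-fold (5.43 to 10.3) higher and 4.84-fold (2.39 to 9.79) lower, and for LIF, 2.30-fold (2.25 to 2.35) higher and 1.71-fold (1.66 to 1.76) lower.

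The distance between the clones was therefore wide. In the controls WT/- exceeded HAQ/- by 52.3-fold (39.1 to 70.02) for IL1B, 43.5-fold (37.5 to 50.3) for IL6, 36.1-fold (18.8 to 69.3) for CSF2, 35.2-fold (32.1 to 38.6) for IL1A and 24.9-fold (23.5 to 26.4) for CSF1. LIF differed by 3.93-fold (3.83 to 4.04), IL7 by 2.71-fold (1.504 to 4.88) and IL15 by 2.51-fold (1.99 to 3.18). IL11 did not follow this order, with a ratio of 0.987 (0.915 to 1.06). With cGAMP the ratio of WT/- to HAQ/- was 70.3 (59.1 to 83.6) for IL6, 41.2 (35.3 to 48.0) for IL1A and 39.3 (24.0 to 64.4) for IL1B. It was 13.2 (12.4 to 14.0) for CSF1, and at least 2.03 for CSF2, from 5 counts against 0.

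**Figure D3:**
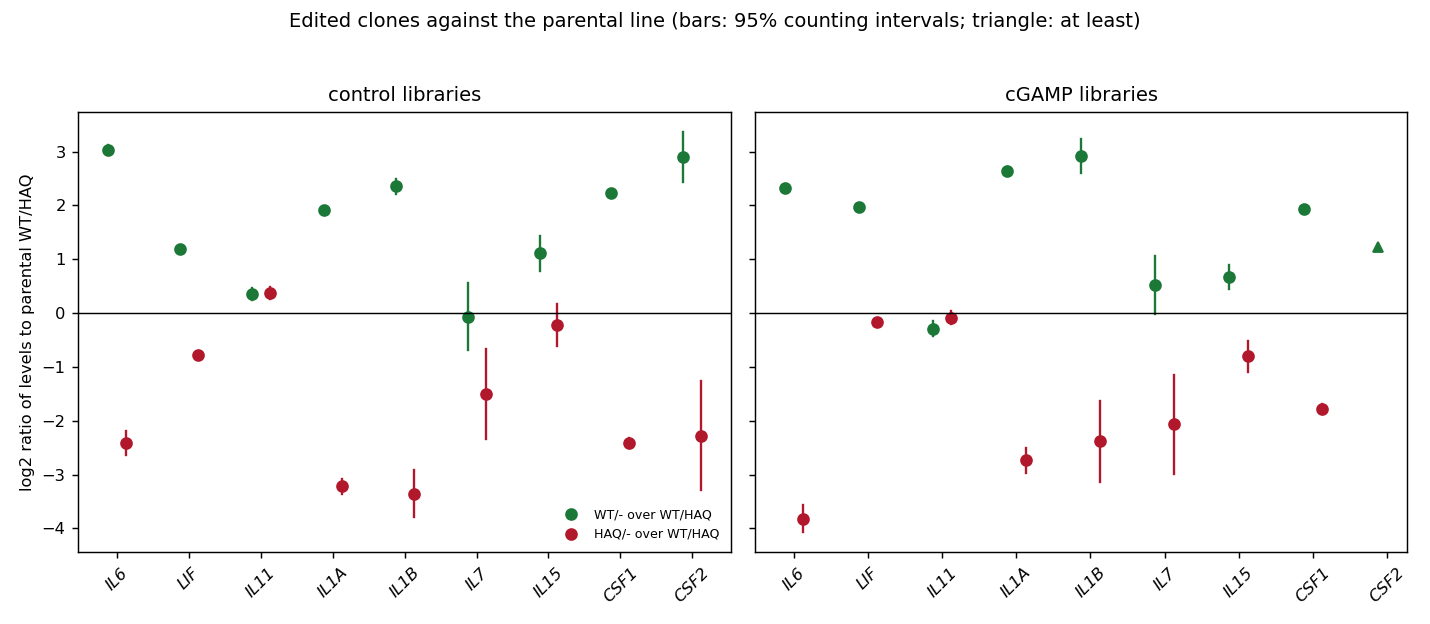
Log2 ratio of each clone to the parental WT/HAQ line for the 9 cytokine genes, in the control libraries and in the cGAMP libraries, with 95% counting intervals as bars and a triangle for a lower limit. WT/- lies above 0 and HAQ/- below 0 for IL6, LIF, IL1A, IL1B, IL15 and CSF1 in both conditions, whereas IL11 stays near 0. The interval of IL15 for HAQ/- in the control libraries includes 0.

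WT/- stood above WT/HAQ and WT/HAQ above HAQ/-, by 1.5-fold or more at each step, for 6 of the 9 genes in the controls (IL6, LIF, IL1A, IL1B, CSF1 and CSF2), against 2.08% of all genes. With cGAMP this held for 5 of the 9 (IL6, IL1A, IL1B, IL15 and CSF1), against 2.68%. CSF2, which is among the 6 in the controls, passed the count filter mainly through its 304 counts in the WT/- control. Lines were also compared in edgeR with treatment as a term, which sets 2 libraries of 1 clone against 2 of another and measures no spread between clones. By that test 7 of the 9 genes were higher in WT/- than in WT/HAQ, against 4.99% of all genes, and 0 were lower, against 3.81%. The log2 differences of these 7 ran from 0.86 ± 0.17 (SE) for IL15 (edgeR adjusted p = 0.0451) to 2.64 ± 0.31 (SE) for IL6 (edgeR adjusted p = 0.0161), leaving aside CSF2 (edgeR adjusted p = 0.0211), which has a library at 0. IL7 and IL11 did not pass (edgeR adjusted p = 0.67 and 0.914). At an unadjusted p under 0.05, and by DESeq2, 0 were lower as well, against 13.4% and 3.44% of all genes.

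In HAQ/- against WT/HAQ 0 of the 9 were higher, against 0.377% of all genes, and 4 were lower, against 0.846%. The 4 were IL6 (log2 difference -3.11), IL1A (-2.99), IL1B (-3.03) and CSF1 (-2.08), with edgeR adjusted p of 0.0298, 0.0137, 0.0192 and 0.0302. All 4 lost the call when the WT/- line was left out of the fit, where the log2 differences were -3.09, -2.97, -2.98 and -2.09 and the edgeR adjusted p ran from 0.0995 for IL1A to 0.189 for IL6. Before adjustment 0 were higher and 8 lower at p under 0.05, against 8.03% and 10.7% of all genes, and DESeq2 gave 0 higher and 4 lower, against 1.2% and 2.51%.

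Between the clones, 8 of the 9 genes were higher in WT/- than in HAQ/-, against 11.1% of all genes, and 0 were lower, against 7.94%. IL11 was the exception, at -0.10 ± 0.16 (SE; edgeR adjusted p = 0.691). The largest log2 differences were those of IL6 (5.75 ± 0.37, SE) and IL1B (5.62 ± 0.24, SE), with edgeR adjusted p of 0.00235 and 0.0014. At an unadjusted p under 0.05, and by DESeq2, 0 were lower as well, against 16.2% and 5.78% of all genes.

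Receptor genes came next. Of 14 receptor genes listed, 8 were analysed, and 3 were higher with cGAMP by edgeR's test and 0 lower, against 2.27% and 0.959% of all genes. Before adjustment 5 were higher and 2 lower at p under 0.05, against 11.6% and 13.6%, and DESeq2 gave 2 and 0, against 5.1% and 3.85%. The median log2 change of the 8 was 0.64 in WT/HAQ and 0.62 in WT/-, and 0.05 in HAQ/- for the 7 with a fold there. Raised were 4, 4 and 2 of them (12.8%, 11.9% and 6.75% of all genes) and lowered 2, 2 and 1 (12.3%, 8.77% and 5.76%), in the order WT/HAQ, WT/- and HAQ/-, by within-line folds that carry counting error only. IL15RA, the chain that presents IL-15, rose by 1.49, 1.26 and 0.92 on the log2 scale (edgeR adjusted p = 0.0166), as IL15 itself did. IL1R1, the signalling receptor of both IL-1 proteins, rose by 0.79, 1.01 and 0.77 (edgeR adjusted p = 0.013), while IL1A and IL1B fell. IL7R had 26.5 normalized counts in the WT/HAQ control and 147 with cGAMP, 111 and 1146 in WT/-, and 2.62 and 2.19 in HAQ/-, the latter from 3 and 2 counts, too few for a fold. It passed the test (edgeR adjusted p = 0.0202).

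IL6R, the specific chain of the IL-6 receptor, was lowered in all 3 lines without passing the test. It had 902 normalized counts in the WT/HAQ control and 98.9 with cGAMP, 1044 and 389 in WT/-, and 833 and 504 in HAQ/-. The log2 changes were -3.19, -1.43 and -0.73, and their spread between lines was wide (edgeR adjusted p = 0.106). The 6 receptor genes below the filter were IL2RG, IL2RB, CSF1R, CSF2RA, CSF2RB and CSF3R.

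Other genes of the pathways were counted in the same way. Of 21 related ligands and decoys 7 were analysed, and 0 passed edgeR's test in either direction, against 2.27% and 0.959% of all genes, with 0 higher and 3 lower before adjustment at p under 0.05 (11.6% and 13.6% of all genes) and 0 and 1 by DESeq2 (5.1% and 3.85%). Raised were 2 in WT/HAQ and 0 in WT/-, against 12.8% and 11.9% of all genes, and lowered were 2 and 4, against 12.3% and 8.77%, with median log2 changes of -0.15 and -0.80. The -0.80 is the value of CNTF, at 20 and 8 counts (ratio 0.572, 0.258 to 1.27). IL33, lowered in WT/- at 13 and 4 counts, and IL23A, raised in WT/HAQ at 9 and 14 counts, also had intervals that include equality. In HAQ/- 6 of the 7 had a fold, 3 were raised and 0 lowered, against 6.75% and 5.76%, with a median of 0.66, and the 3 include EBI3 at 3 and 6 counts (ratio 2.51, 0.688 to 9.15). Of 9 genes of mRNA decay and stability, whose products bind AU-rich and stem-loop elements of cytokine transcripts, all were analysed, and by edgeR 1 was higher and 1 lower, against the 2.27% and 0.959% of all genes. ZFP36L2 rose by 2.36, 2.30 and 1.01 on the log2 scale (edgeR adjusted p = 0.0442) and its relative ZFP36L1 had log2 changes of -1.51, -0.93 and -0.70 (edgeR adjusted p = 0.0444). The median of the 9 was -0.12, -0.08 and -0.16.

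Of 8 genes of the gp130 and STAT3 response, 2 were higher and 1 lower by edgeR's test, against 2.27% and 0.959% of all genes, with median log2 changes of 0.27, 0.08 and 0.03. SOCS3, the feedback inhibitor of gp130, had 341 normalized counts in the WT/HAQ control and 677 with cGAMP, 1606 and 3964 in WT/-, and 201 and 617 in HAQ/-, log2 changes of 0.99, 1.303 and 1.62 (edgeR adjusted p = 0.0152). In HAQ/- SOCS3 was higher with cGAMP, the ratio of IL6 did not exclude equality and LIF was lower. A link between these genes was not tested. OSMR, the oncostatin M receptor chain, rose by 0.72, 0.59 and 0.45 (edgeR adjusted p = 0.0313), and the kinase gene PIM1 had log2 changes of -1.14, -0.84 and -0.99 (edgeR adjusted p = 0.0122).

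Of 6 genes that act in inflammasome processing and release of IL-1β, 5 were analysed, and 1 was higher by edgeR's test, against 2.27% of all genes. In each line 0 of the 5 were lowered, against 12.3%, 8.77% and 5.76% of all genes in WT/HAQ, WT/- and HAQ/-. Different genes made up the 3 raised in each line, against 12.8%, 11.9% and 6.75% of all genes in WT/HAQ, WT/- and HAQ/-. They were NLRP3, AIM2 and GSDMD in WT/HAQ, CASP1, AIM2 and GSDMD in WT/-, and CASP1, NLRP3 and AIM2 in HAQ/-, where NLRP3 rested on 5 and 9 counts in WT/HAQ and 1 and 8 in HAQ/-. CASP1 rested on 5 and 15 counts in HAQ/-, with a ratio of 3.76 (1.42 to 9.96). AIM2, a cytosolic DNA sensor that forms an inflammasome, had 8.84 normalized counts in the WT/HAQ control and 403 with cGAMP, 9.33 and 192 in WT/-, and 2.62 and 20.8 in HAQ/-. The log2 changes were 5.51, 4.37 and 2.99, the last from 3 and 19 counts with a ratio of 7.95 (2.51 to 25.2), and the edgeR adjusted p was 0.00925. By edgeR 0 of the 5 were lower, also before adjustment and by DESeq2, against 0.959%, 13.6% and 3.85% of all genes. Without the WT/- line 0 of all 15126 genes passed edgeR's test in either direction. In that fit 3, 1, 3 and 1 of the receptor, decay, gp130 response and processing genes were higher before adjustment at p under 0.05, against 6.27% of all genes, and 0, 2, 1 and 0 lower, against 6.21%. After adjustment 3, 0, 1 and 1 were higher without WT/HAQ (0.899% of all genes) and 0, 1, 1 and 0 lower (0.331%). Without HAQ/- 4, 1, 3 and 3 were higher (8.5%) and 2, 3, 2 and 0 lower (8.65%). Without the line as a block 0 of them passed, against 0.377% higher and 0.0264% lower. The median log2 change of the 5 processing genes was 0.67 in WT/HAQ and 0.60 in WT/-. In HAQ/- it was 1.74, the value of NLRP3, whose 1 control count was set to 3.

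**Figure D4:**
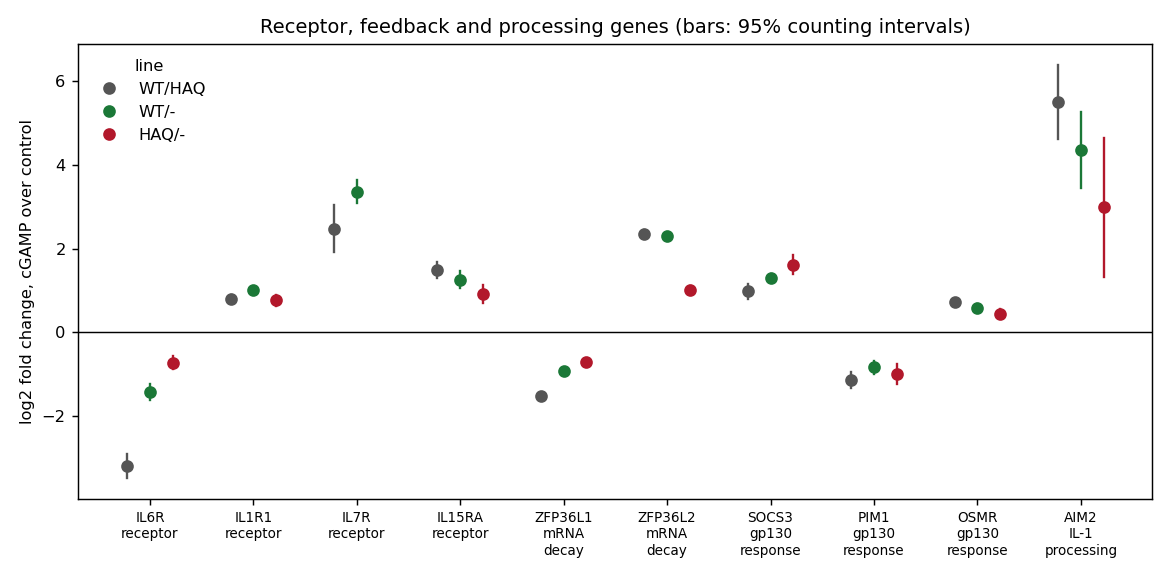
Log2 fold change, cGAMP over control, of the receptor, mRNA decay, gp130 response and IL-1 processing genes that passed edgeR's test or moved 1.5-fold in all 3 lines, 1 point per line with its 95% counting interval. IL1R1, IL15RA, ZFP36L2, SOCS3, OSMR and AIM2 lie above 0 and IL6R, ZFP36L1 and PIM1 below 0 in every line, and IL7R has no point for HAQ/-.

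The genes whose pattern over the 6 libraries was most like each cytokine gene were found by the Euclidean distance between centred log2 levels, among 10780 genes with a mean of at least 100 counts. IL1A was closest to TNFAIP3, a feedback inhibitor of NF-κB signalling (distance 0.405), and then to IL1B (0.745). IL1B was closest to IL1A and then to the chemokine gene CXCL3 (0.757). IL6 was closest to the complement gene C3 (0.743), followed by RND1 (1.61), and CSF1 to the receptor gene TLR2 (0.735) and PDZK1IP1 (0.784). LIF was closest to AMOTL2 (0.211) and TMEM265 (0.395), and IL11 to DECR2 (0.145) and SNAPC5 (0.163). IL15 was closest to PML, an interferon-induced gene (0.347), and then to HIST2H4B (0.489), whose counts are uncertain because histone genes have near-identical copies. With 6 libraries from 3 lines, these distances describe the libraries and carry no test.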

How the data were processed

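Poly(A) RNA of 3 SKOV3 lines was sequenced with paired reads, 1 library per line and treatment. Per the labels, STAR and RSEM with GRCh38 (hg38) are named in the submitters' processing notes, and the annotation is not given in the sources used here. The authors deposited expected counts per gene (estimated counts, as RSEM gives) without normalization for 60498 genes, 92.7% to 93.3% of them exactly whole, and they were rounded here to whole counts. All 6 columns were matched to samples, with 0 left over. A mean count of 10 or more was required, which left 15126 genes. Libraries were scaled by TMM (factors from 0.940 to 1.052), and normalized counts refer to the geometric mean of these effective sizes. Within a line, counts under 3 were set to 3, no fold was taken at 3 or fewer in both libraries, and intervals are 95% Wilson intervals.

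The average response was tested with edgeR 4.0.16 (R 4.3.3; glmQLFit, glmQLFTest) with line as a block, because both libraries of a line come from the same cell line, leaving 2 residual degrees of freedom. An alternative fit used DESeq2 1.42.0. SE is the size of the log2 change divided by the square root of F. The test was tried first on simulated counts. Line contrasts were added after the data were seen. The cytokine genes, the lists and the motifs were chosen with earlier results of these data known. Named genes were every cytokine gene, STING1 (TMEM173 in the table, matched by identifier), genes of the lists that moved 1.5-fold in all 3 lines or passed the test, and the 2 nearest patterns of each cytokine gene with a mean of at least 100 counts. Exon lengths and positions are those of GENCODE 44, promoter windows those of RefSeq (GRCh38.p14), with windows for IL6, IL1A, IL1B, CSF2 and IL11. LIF, IL7, IL15, CSF1 and CSF3 had no entry there. Other settings are compared in the closing section.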

Additional observations from a re-analysis of the deposited data

Results flagged for a closer look

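IL11 and CSF1 had folds of opposite sign between lines, with counting intervals that exclude equality in each line. The log2 fold change of IL11 with cGAMP was -0.45 in WT/- and -0.27 in HAQ/- but 0.19 in WT/HAQ. That of CSF1 was 0.38 in HAQ/-, -0.24 in WT/HAQ and -0.54 in WT/-. With 1 library per line and treatment the difference between lines was not tested.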

How the results depend on the processing

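There was 1 library per line and treatment, so within-line folds carry counting error only, and leaving out a line takes the place of leaving out a replicate. The average log2 change of CSF1 with cGAMP, -0.14 over all lines, ranged from -0.40 without HAQ/- to 0.073 without WT/- (edgeR adjusted p = 0.886), the one change of sign among the cytokine averages and line differences. LIF, IL1A, IL1B, CSF2 and IL15 kept their direction in each alternative fit of edgeR and DESeq2. With no replicate block, that is without the line as a term, genes higher with cGAMP went from 344 to 57 and lower from 145 to 4, and cytokine genes higher from 1 to 0 and lower from 4 to 0, with edgeR adjusted p from 0.286 for CSF2 to 0.91 for IL1A. Leaving out each line in turn gave 0 to 1285 genes higher and 0 to 1309 lower, and 0 to 2 cytokine genes higher and 0 to 5 lower. The lowest values came without WT/-, where before adjustment 949 genes higher and 939 lower had p under 0.05 by edgeR, and the highest without HAQ/-. DESeq2 gave 772 higher and 583 lower, and a mean of at least 1 count gave 581 and 424. Under that filter CSF3 was tested, with an edgeR adjusted p of 0.804 for cGAMP.

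At a fold of at least 2, IL15 lost the raised call in WT/- (1.99-fold) and HAQ/- (1.81-fold). LIF lost the lowered call in WT/- (1.63-fold) and HAQ/- (1.83-fold), and IL1A in WT/- (1.86-fold). With a mean of at least 50 counts, IL7 (mean 35.5) was left out, and with it its call in WT/-. Scaled by total counts only, CSF1 was lowered in WT/- (log2 change -0.60), and with a mean of at least 1 count so was CSF3 (-1.65). Shares of all genes at these settings were not computed. For WT/- over WT/HAQ, leaving out HAQ/- gave 1497 genes higher (755 with it) and 1072 lower (577). For HAQ/- over WT/HAQ, 57 genes were higher and 128 lower, against 182 and 380 by DESeq2 and 111 and 258 with a mean of at least 1 count. Without WT/- this comparison gave 0 higher and 0 lower, with 919 and 1164 at an unadjusted p under 0.05 by edgeR, and 0 cytokine genes lower, with 5 at an unadjusted p under 0.05. The cause of these differences was not tested. Depth limits IL7, CSF2 with cGAMP and CSF3.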
